A study of Homo sapiens with 12 samples.

Results

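LOC284801, MIR663A and MIR3648 are 3 of the 25365 gene names in a table of RNA-seq values from A549 cells, and they were picked because they stood higher after pyridostatin. LOC284801 is listed by RefSeq as MIR663AHG, the long non-coding host gene of the microRNA gene MIR663A on chromosome 20, and MIR3648 is a microRNA gene on chromosome 21. All 3 names were found in the table. Each averaged 1 FPKM or more, as did 11881 names in all, and these are the names tested. Because the pyridostatin values chose these rows, the differences with pyridostatin are given as a description, without a test.

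A549 cells are an established epithelial line from a lung adenocarcinoma. Pyridostatin is a compound that binds G-quadruplexes, folded structures of DNA strands with several runs of G, and stabilizes them. The cells were wild type (WT) or PARP3-/-, in which Cas9 cuts had removed part of exon 1 of PARP3 before the cells were cloned by serial dilution, so that the genotypes may also differ by clone. Each genotype was kept for 24 h with pyridostatin at 1 μM or with its solvent DMSO (vehicle), with 3 replicates per group and 12 stranded mRNA libraries in all. Values are in FPKM, reads per length of transcript and per number of mapped reads, and differences are on the log2(FPKM + 1) scale.

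MicroRNA genes are transcribed as long primary transcripts, from which the nuclease DROSHA with DGCR8 cuts a hairpin that DICER1 trims to the mature strand. The mature strand loads into an AGO protein and finds messenger RNAs mainly through its seed, bases 2 to 8. MIR663A lies near the centromere of chromosome 20, and the MIR3648 sequence belongs to the ribosomal DNA unit, where RNA polymerase I makes the precursor of ribosomal RNA. Poly(A) libraries are made to hold host and primary transcripts with a poly(A) tail, and mature microRNAs are far too short to be measured in them. The values below are therefore of the longer RNAs over these loci. How far such libraries hold RNA of the ribosomal DNA unit, and which RNA gave the reads of MIR3648, was not tested.

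The mature sequences are shown because they define the 2 microRNAs and show which other microRNAs carry the same seed. RefSeq (GRCh38.p14) places miR-663a at chr20:26208243-26208264 on the minus strand and the copy of miR-3648 from MIR3648-2, 1 of 2 RefSeq genes for it, at chr21:8987026-8987046 on the plus strand. Seeds are in capitals.
hsa-miR-663a: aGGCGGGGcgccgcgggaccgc
hsa-miR-1908-5p: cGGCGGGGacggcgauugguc
hsa-miR-6787-5p: uGGCGGGGguagagcuggcugc
hsa-miR-10396b-5p: cGGCGGGGcucggagccggg
hsa-miR-3648: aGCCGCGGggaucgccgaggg
hsa-miR-663b: gGUGGCCCggccgugccugagg

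The first 4 share 1 seed, which differs from that of miR-663b in spite of the common name. No other mature sequence among the 2351 distinct ones in the RefSeq table had the seed of miR-3648. GC content was 90.9% in miR-663a and 81.0% in miR-3648 against a median of 52.2%, and 0.468% and 2.85% of all mature sequences were at or above those values. Of the other genes with this seed that are rows of the table, MIR1908 was above 0 in 3 libraries (at most 311 FPKM) and MIR6787 was listed at 0 in all 12. The MIR663B row was also listed at 0 in all 12.

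LOC284801 itself, although picked as a GC-rich locus, did not have a GC-rich transcript. The spliced host transcript of 5 exons (1213 bases in GENCODE 29, the transcript paired there with the RefSeq entry) had a GC content of 41.1%. The promoter window around the start and the miR-663a sequence were rich in G and C, and the remainder of the locus was not measured. The promoter is shown because pyridostatin binds structures that runs of G can form. It spans 250 bases before to 50 bases after the start of MIR663AHG at chr20:26209184-26209483, minus strand, GRCh38.p14, in RefSeq, and runs of at least 3 G or 3 C are in capitals.
MIR663AHG promoter: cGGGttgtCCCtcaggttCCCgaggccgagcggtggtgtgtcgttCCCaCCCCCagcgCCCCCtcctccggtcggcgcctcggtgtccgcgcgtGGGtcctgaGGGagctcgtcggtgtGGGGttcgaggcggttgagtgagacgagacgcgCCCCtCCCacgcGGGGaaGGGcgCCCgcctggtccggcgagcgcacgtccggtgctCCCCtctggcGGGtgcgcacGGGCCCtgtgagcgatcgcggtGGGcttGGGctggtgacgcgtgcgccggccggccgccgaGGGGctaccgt

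This window had a GC content of 75.3% (median of 35116 promoters 58.7%) and held 43 CpG dinucleotides (median 14). It held 11 runs of GGG or longer and 10 runs of CCC or longer. A strict G-quadruplex pattern, 4 runs of GGG or longer separated by 1 to 7 bases of any kind, was not in these letters on either strand, and 25.0% of all promoters of this length held it. The pattern is a description of the letters and not a measurement of folding.

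The MIR663A hairpin (93 bases) lies in intron 1 of that host transcript on the same strand, so spliced LOC284801 RNA of this form does not contain it. Of 37 GENCODE transcripts of the host gene, 25 span the hairpin and 3 have an exon that overlaps it. Unspliced host RNA and such exons cannot be told apart in the MIR663A row. None of the 1139 windows of 75 bases in the host transcript, the read length used, occurred in the 206657 GENCODE transcripts of other genes. The genome outside transcripts was not searched. MIR3648 (180 bases) is present as 2 RefSeq genes on chromosome 21 where the table has 1 row, and how reads that fit several copies were counted is not given in the sources used here.

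PARP3 RNA lay between 3.40 and 4.05 FPKM in WT and between 4.07 and 4.92 FPKM in PARP3-/- libraries. This is a value of the whole gene, with sequence outside the deletion, so it does not check the genotype, and directions between genotypes follow the labels. Relative depth, read from the ratio of low values between libraries, ran from 0.890 to 1.26 of the first WT vehicle library. The keratins KRT7, KRT8, KRT18 and KRT19 were at 83.3 FPKM or more in every library and CDH1 at 9.85 FPKM or more, while the epithelial marker EPCAM was at 0.879 to 2.36 FPKM. The alveolar type II markers SFTPA1, SFTPB and SFTPC were at or below 0.0459 FPKM, and so were PTPRC, PECAM1 and DCN of blood, vessel and stroma. CD14 (2.81 to 6.26 FPKM) and ABCA3 (7.99 to 11.1 FPKM) were above this level, and HBB ranged from 0 to 2.61 FPKM.

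LOC284801, the host gene, had the most reads behind it of the 3 rows. With vehicle it was at 3.40, 2.53 and 2.92 FPKM in WT and at 1.38, 1.68 and 2.22 FPKM in PARP3-/- cells. With pyridostatin it was at 3.96, 5.77 and 4.53 FPKM in WT and at 7.33, 6.89 and 5.15 FPKM in PARP3-/- cells. In both genotypes every pyridostatin library lay above every vehicle library, as for 13.4% of all tested names in WT and 16.6% in PARP3-/- cells. In bulk RNA, more cells with the transcript and more of it per cell cannot be told apart. The group means were 2.95 ± 0.433 and 4.75 ± 0.929 FPKM in WT and 1.76 ± 0.425 and 6.46 ± 1.16 FPKM in PARP3-/- cells (SD, n = 3 each).

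The pyridostatin mean of LOC284801 was 1.61 times the vehicle mean in WT and 3.67 times in PARP3-/- cells. On the log2(FPKM + 1) scale these differences were 0.54 and 1.43 (standard error 0.155 for each). They ranked 130 and 49 from the top among the 11881 tested names. The order of the group means ran from PARP3-/- vehicle through WT vehicle and WT pyridostatin to PARP3-/- pyridostatin. The first 3 groups of this order did not overlap, and the WT and PARP3-/- pyridostatin libraries overlapped. The genotypes thus stood in opposite order under the 2 treatments, PARP3-/- below WT with vehicle (log2 difference −0.52, no overlap, as for 9.17% of all tested names in this direction) and above it in the mean with pyridostatin (0.37). The choice of rows favours low vehicle values and high pyridostatin values, so this order is a description that the choice may have shaped. Whether pyridostatin acted on LOC284801 to a different extent in the 2 genotypes was not tested, since the choice of rows used both.

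The file also shows how many reads stand behind these values. After correction for depth, all 12 values of LOC284801 were whole multiples of 0.0366 FPKM within 0.05 of a step, and neighbouring values such as 44 and 45 steps differed by 1, as counts of single reads do. The steps were 93, 73 and 75 in WT with vehicle and 44, 45 and 54 in PARP3-/- cells with vehicle. With pyridostatin they were 116, 199 and 129 in WT and 211, 193 and 142 in PARP3-/- cells. Read as counts, the lowest (44) has an exact Poisson 95% interval of 32.0 to 59.1 and the highest (211) one of 183.5 to 241.5, which cover counting error only.

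**Figure D1:**
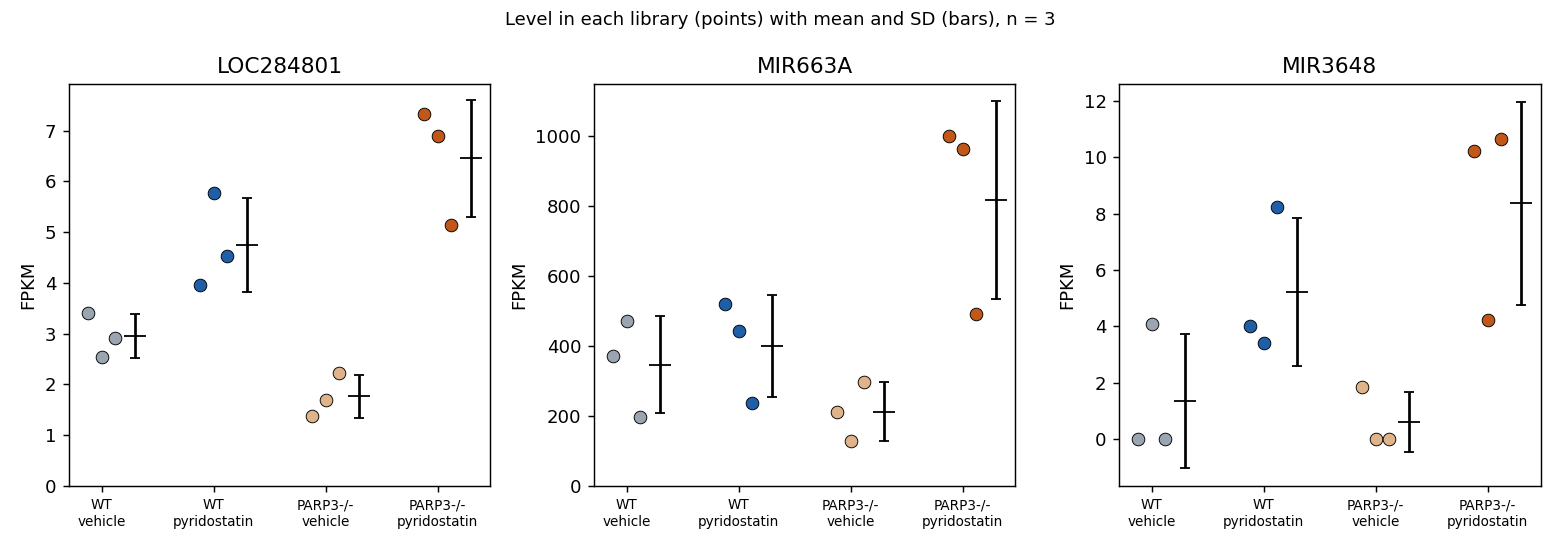
FPKM (y axis, linear) of LOC284801, MIR663A and MIR3648 in each of the 12 libraries by group (points), with the group mean and SD (bars, n = 3). In the PARP3-/- groups every pyridostatin library lies above every vehicle library for all 3 rows, and in WT this holds for LOC284801 alone.

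MIR663A, the microRNA gene inside the host, was at 371, 470 and 197 FPKM in WT with vehicle and at 519, 441 and 237 FPKM in WT with pyridostatin. In PARP3-/- cells it was at 212, 127 and 295 FPKM with vehicle and at 999, 961 and 490 FPKM with pyridostatin. The WT groups overlapped, with means of 346 ± 138 and 399 ± 145 FPKM (SD, n = 3), and the PARP3-/- groups were apart, with means of 211 ± 84.3 and 817 ± 283 FPKM (SD, n = 3).

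The ratio of these means of MIR663A was 1.15 in WT and 3.87 in PARP3-/- cells, and the log2 differences were 0.22 and 1.96 (standard error 0.432 for each), ranks 697 and 32 of 11881. The WT difference rested on single libraries. It was −0.14 without WT vehicle replicate 3 and −0.0063 without WT pyridostatin replicate 1, and it was 0.49 without WT vehicle replicate 2, 0.11 without WT pyridostatin replicate 2 and 0.56 without WT pyridostatin replicate 3. In the order of means, which was the same as for LOC284801, the ranges of all neighbouring groups overlapped.

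The high FPKM of MIR663A do not mean many reads. Its depth-corrected values were whole multiples of 61.8 FPKM in 10 of 12 libraries (within 0.05 of a step), the others being at 4.25 and 15.9 steps. In WT the steps were 6, 8 and 3 with vehicle and 9, 9 and 4 with pyridostatin. In PARP3-/- cells they were 4, 2 and 4.25 with vehicle and 17, 15.9 and 8 with pyridostatin. Whether 1 step is a whole read or a share of a read that fits several places is not given. If it is a whole read, the exact 95% Poisson interval of 17 is 9.9 to 27.2 and that of 2 is 0.2 to 7.2.

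MIR3648, the row of ribosomal DNA sequence, was close to the limit of detection. In WT it was at 0, 4.08 and 0 FPKM with vehicle and at 4.01, 3.41 and 8.25 FPKM with pyridostatin, so the WT groups overlapped. In PARP3-/- cells it was at 1.84, 0 and 0 FPKM with vehicle and at 10.2, 4.22 and 10.7 FPKM with pyridostatin, without overlap. Of the 4 libraries listed at 0, all were vehicle libraries. The log2 differences were 1.78 in WT and 2.64 in PARP3-/- cells (standard error 0.650 for each), ranks 43 and 17 of 11881, and they changed with the added constant, to 3.83 and 4.86 when 0.1 was added in place of 1. In WT the difference was 1.39 to 2.56 with 1 library left out.

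All 8 values of MIR3648 above 0 were whole multiples of 2.15 FPKM after correction for depth (within 0.05 of a step). Summed over 3 libraries, there were 2 steps with vehicle and 8 with pyridostatin in WT, and 1 with vehicle and 12 with pyridostatin in PARP3-/- cells. No library held more than 5 steps. A count of 0 allows up to 3 counts, here 6.44 FPKM if a step is 1 read, which is above the values of 3 pyridostatin libraries. A value of 0 in a single library therefore does not show a level below those of the libraries above 0.

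A step was worth 28.8 times more FPKM in MIR663A than in MIR3648, at RefSeq lengths of 93 and 180 bases. For this reason FPKM levels were not compared between the 3 rows. Over the 12 libraries LOC284801 had 1374 steps, MIR663A 90.2 and MIR3648 23.0.

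**Figure D2:**
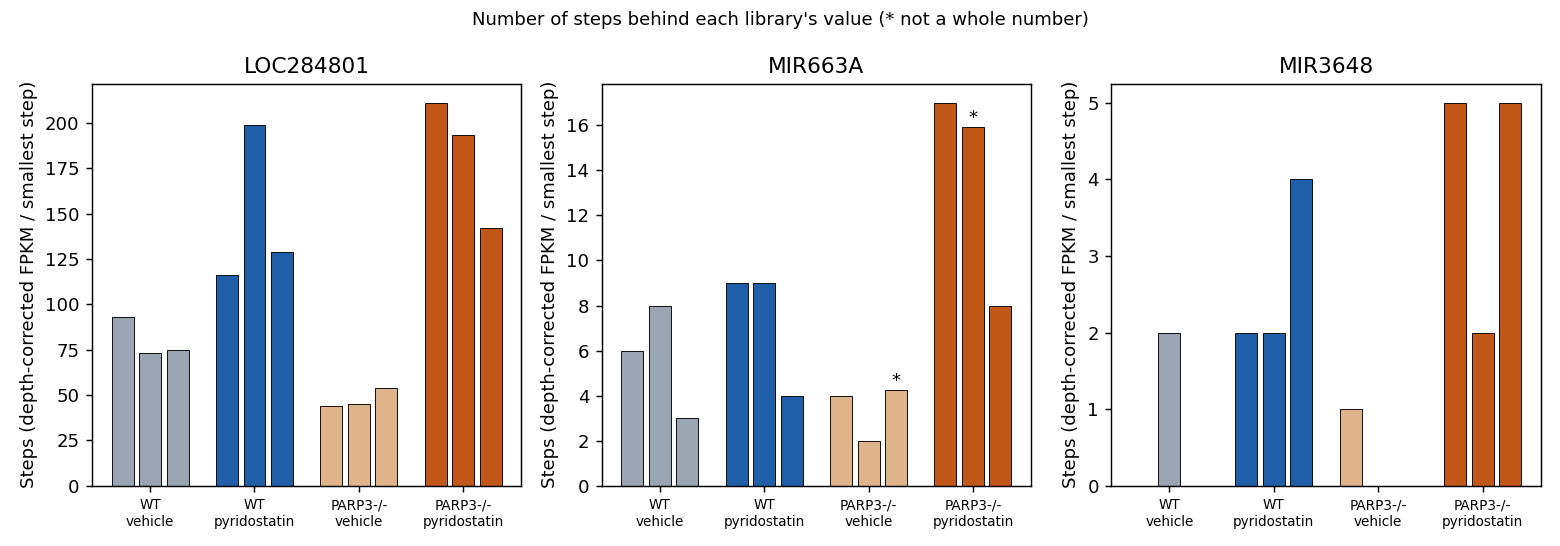
Number of steps (y axis, depth-corrected FPKM divided by the smallest common step of the row) in each library (bars) by group. The rows differ in scale, from at most 211 steps for LOC284801 to at most 17 for MIR663A and 5 for MIR3648, and the 2 bars with a star are not whole numbers.

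In PARP3-/- cells 3 of 3 rows did not overlap between treatments and were higher with pyridostatin, where 16.6% of all tested names did the same, and in WT 1 of 3 did, against 13.4%. These shares only describe rows that the choice had fixed.

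Whether the rows differ between the genotypes on average could be tested on the condition that the groups have equal spread, which was not checked. On that condition the genotype difference averaged over both treatments is independent of the pyridostatin differences that chose the rows. For LOC284801 this difference was −0.07 on the log2(FPKM + 1) scale (standard error 0.110, limma adjusted p = 0.711; exact permutation within treatments, two-sided p = 0.695). For MIR663A it was 0.17 (standard error 0.306, limma adjusted p = 0.772; exact permutation p = 0.710), and for MIR3648 it was 0.15 (standard error 0.460, limma adjusted p = 0.872; exact permutation p = 0.740). The permutation test had 400 arrangements and could reach 0.005. None of the 3 passed an adjusted p under 0.05 (0 also at an unadjusted p under 0.05), where 19.1% of all tested names passed, and none passed an absolute log2 fold change above 1 as well, where 0.396% did. Each small average joins differences of opposite sign. These were −0.52 with vehicle and 0.37 with pyridostatin for LOC284801, −0.70 and 1.04 for MIR663A, and −0.28 and 0.58 for MIR3648. The averages therefore do not show that the genotypes were alike within each treatment.

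A further question was whether the rows move together among libraries of the same group. Deviations from the group means, which the choice of rows did not use, were compared over the 12 libraries for the 3 pairs of rows. Host and hairpin had Pearson's r = 0.337 (exact permutation within groups, p = 0.360, adjusted over the 3 pairs 0.540) and Spearman's rho = 0.315 (exact permutation p = 0.366, adjusted 0.549). Without the 2 libraries farthest from the median r was 0.166. LOC284801 and MIR3648 went in opposite directions with r = −0.562 (exact permutation p = 0.0772, adjusted 0.231) and rho = −0.565 (exact permutation p = 0.0556, adjusted 0.167), and r was −0.520 without the 2 farthest libraries. MIR663A and MIR3648 had r = 0.082 (exact permutation p = 0.870, adjusted 0.870) and rho = 0.123 (exact permutation p = 0.781, adjusted 0.781), with r = 0.070 without the 2 farthest. None of the 3 relations passed a threshold of 0.05.

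Genes whose levels over the 12 libraries were most like each row were then listed, with Pearson's r on the log2(FPKM + 1) scale. They share libraries and the treatment groups with the rows, so r describes likeness alone. For LOC284801 these were CASC10 (r = 0.940), ANKRD30BL (0.936), ZBED3 (0.930), the homeobox gene MSX2 (0.928) and the cold-shock domain gene YBX3 (0.915). MIR663A stood 156th in this list (r = 0.800). For MIR663A the nearest were DEAF1 (0.852), ABHD14B (0.817), the zinc-finger transcription factor KLF4 (0.809), TTLL11 (0.806) and C17orf89 (0.804), and its host LOC284801 came 6th (0.800). For MIR3648 they were MYEOV (0.906), PKD1L2 (0.895), DGAT1 (0.892), which makes triacylglycerol, SMOX (0.890), which oxidizes spermine, and CPSF4 (0.890), a subunit of the polyadenylation factor CPSF.

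ANKRD30BL is the gene on chromosome 2 whose span contains MIR663B in RefSeq, so the host of one miR-663 gene was 2nd in likeness to the host of the other. ANKRD30BL was at 4.74, 3.67 and 4.56 FPKM in WT with vehicle and at 6.34, 7.36 and 7.19 FPKM in WT with pyridostatin. In PARP3-/- cells it was at 3.11, 4.85 and 3.90 FPKM with vehicle and at 9.07, 8.61 and 7.13 FPKM with pyridostatin. As for LOC284801, the pyridostatin libraries lay above the vehicle libraries in both genotypes. The same held for 13.4% of all tested names in WT and 16.6% in PARP3-/- cells. The PARP3-/- pyridostatin mean of ANKRD30BL was the highest of the 4. The log2 differences of ANKRD30BL were 0.58 in WT and 0.91 in PARP3-/- cells. As it was named for its likeness to a row chosen on pyridostatin values, its separation and these differences may follow from that choice. They are given without a test. CASC10 was at 14.8 ± 0.690 FPKM with vehicle and 18.1 ± 0.953 FPKM with pyridostatin in WT, and at 13.2 ± 0.105 and 19.2 ± 0.644 FPKM in PARP3-/- cells (SD, n = 3).

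**Figure D3:**
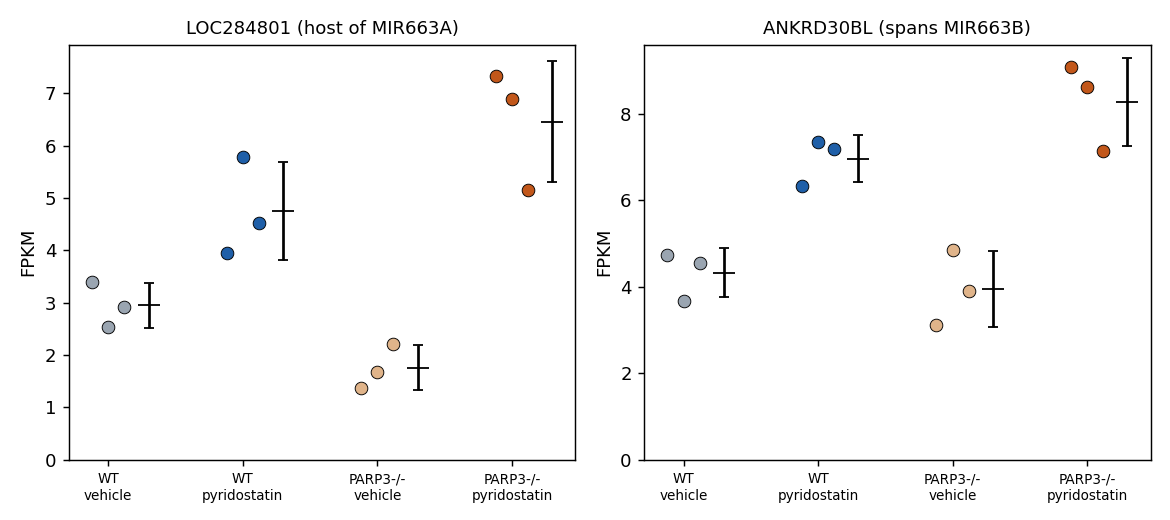
FPKM (y axis, linear) of LOC284801, host of MIR663A, and of ANKRD30BL, which spans MIR663B, in each library by group (points), with mean and SD (bars, n = 3). In both genes the pyridostatin libraries lie above the vehicle libraries of the same genotype, and ANKRD30BL reaches 7.13 to 9.07 FPKM in PARP3-/- cells with pyridostatin.

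Neighbouring rows did not pass the test or were close to 0. Around LOC284801 on chromosome 20 the nearest names of the table before it in the RefSeq order were LOC100134868, FAM182A and NCOR1P1, and those after it were FRG1B, MLLT10P1 and DEFB115. LOC100134868 was at 2.02 and 2.63 FPKM (vehicle and pyridostatin means) in WT and at 1.96 and 2.20 FPKM in PARP3-/- cells (limma adjusted p = 0.0703 and 0.457). FRG1B was at 21.5 and 23.2 FPKM in WT and at 23.0 and 22.1 FPKM in PARP3-/- cells (limma adjusted p = 0.396 and 0.684). The others did not reach a mean of 1 FPKM. On chromosome 21 no name of the table came before MIR3648 in this order. After MIR3648 on chromosome 21 came TEKT4P2, at 14.1 and 13.6 FPKM in WT and at 13.9 and 15.3 FPKM in PARP3-/- cells (limma adjusted p = 0.794 and 0.341), and then TPTE and ANKRD30BP2, both at means below 1 FPKM. Of the ribosomal DNA names sought, 4 were rows of the table (MIR3687, RNA45S5, RNA5-8S5 and LOC100507412), and all 4 were listed at 0 in every library.

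The rows named for microRNAs were mostly empty in these libraries. Of 1601 such rows, 113 were above 0.001 FPKM in any library and 6 in all 12. MIR663A was one of the 6 and ranked 6th by mean, and MIR3648, above 0.001 FPKM in 8 libraries, ranked 91st. The 5 rows above MIR663A were MIR1244-1 (4010 to 10900 FPKM), MIR1244-2 (2825 to 7084 FPKM), MIR147B (0.0789 to 4819 FPKM), MIR5047 (535 to 1175 FPKM) and MIR622 (515 to 1108 FPKM), and none of them had a limma adjusted p under 0.05 in either genotype. Of the 111 other rows above 0.001 FPKM, 43 were so in a single library.

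Of the 105 other microRNA rows with a mean of at least 1 FPKM, 0 passed an adjusted p under 0.05 from limma with pyridostatin in WT (8 at an unadjusted p under 0.05, 4.17% of all names called) and 0 in PARP3-/- cells (1 unadjusted, 5.56% of all names called). With 1 library left out the WT count was 2 without WT pyridostatin replicate 2 and 1 without its replicate 1, PARP3-/- vehicle replicates 2 or 3 or PARP3-/- pyridostatin replicate 1. The PARP3-/- count was 1 without WT vehicle replicates 2 or 3, PARP3-/- vehicle replicate 2 or WT pyridostatin replicate 2. Their median log2 difference was 0 in both genotypes, against 0.0030 and 0.0021 for all names. Large differences were frequent among them, as 17 of the 105 had a PARP3-/- difference at least as high as that of MIR663A and 12 had one at least as far below 0. All pyridostatin libraries were above all vehicle libraries in 0 of the 105 in PARP3-/- cells, against 16.6% of all names, and in 3 in WT (MIR6789, MIR1248 and MIR147B), or 2.86% against 13.4% of all names. A row above 0.001 FPKM in only 1 or 2 libraries, as many of these were, could not have all 3 pyridostatin libraries above that level. The low shares therefore do not make the separation of MIR663A and MIR3648 particular to them.

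**Figure D4:**
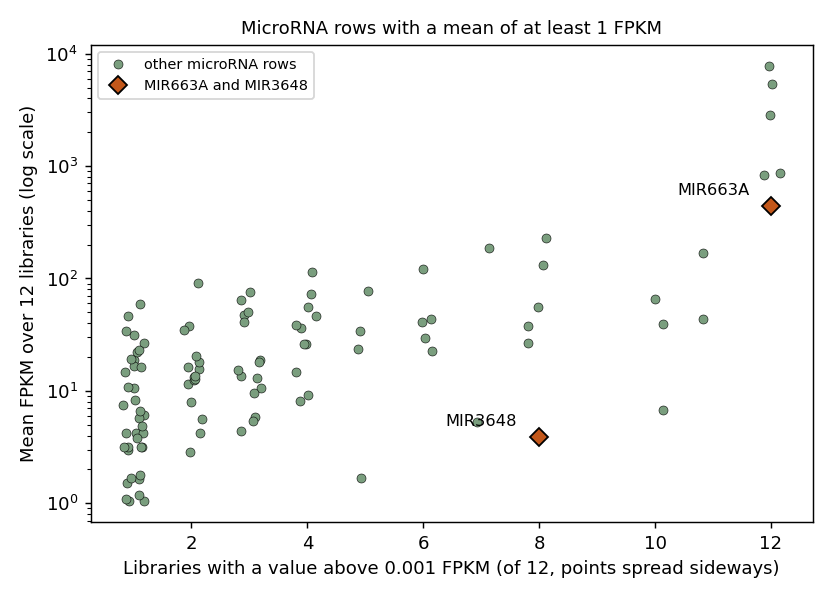
Mean FPKM over the 12 libraries (y axis, log scale) of the 107 microRNA rows with a mean of at least 1 FPKM, by the number of libraries above 0.001 FPKM (x axis). MIR663A lies among the 6 rows found in all 12 libraries, and MIR3648 is found in 8 with a mean below those of the other rows found in 8.

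**Figure D5:**
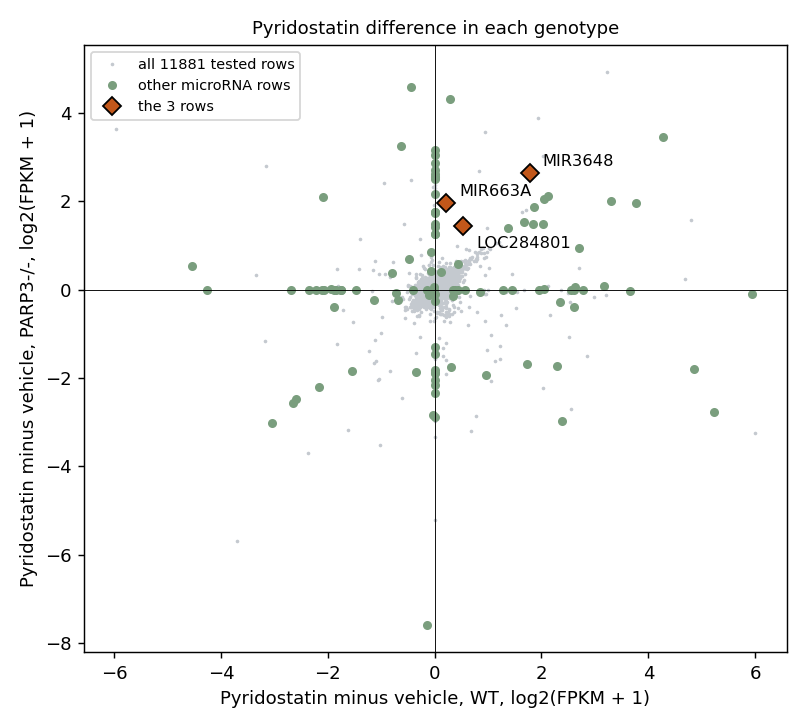
Pyridostatin minus vehicle on the log2(FPKM + 1) scale in WT (x axis) and PARP3-/- cells (y axis) for the 11881 tested names (grey), the 105 other microRNA rows (green) and the 3 rows described here (orange). The 3 rows are above 0 on both axes, at 0.54 and 1.43 for LOC284801, 0.22 and 1.96 for MIR663A and 1.78 and 2.64 for MIR3648, and other microRNA rows scatter as far in both directions.

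Few genes of microRNA processing passed the test. With pyridostatin in WT, 1 of the 16 tested genes of this list had an adjusted p under 0.05, and in PARP3-/- cells 0 did (4 and 3 at an unadjusted p under 0.05 from limma), where 2.79% and 3.05% of all names were called higher. The median log2 differences were 0.07 and 0.0004. The gene that passed was ADAR, an RNA-editing enzyme, which rose in WT from 44.5 ± 4.42 to 53.2 ± 0.988 FPKM (SD, n = 3, limma adjusted p = 0.0452), and in PARP3-/- cells stood at 46.3 ± 1.08 and 52.9 ± 2.07 FPKM (limma adjusted p = 0.116). Between genotypes 1 of 16 passed, where 19.1% of all names were called and 12.2% called higher. This was DGCR8, with a log2 difference of 0.10 (limma adjusted p = 0.0360). DROSHA (−0.0098, limma adjusted p = 0.921) and DICER1 (0.04, limma adjusted p = 0.810) did not pass. These calls were fragile, with 0 to 1 passing in WT and 0 to 3 between genotypes when 1 library was left out. The call in WT was lost without any one of 10 of the 12 libraries, WT vehicle replicates 2 and 3 being the exceptions. The WT and genotype counts were 0 with quantiles made equal. The WT count was also 0 with eBayes without a trend, and the genotype count was 0 with a block for replicate number. In PARP3-/- cells the count of 0 was 2 without WT vehicle replicate 2.

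Genes of RNA polymerase I and of nucleolar proteins such as NCL, NPM1 and NOLC1 were examined, because this polymerase reads the unit that holds MIR3648. With pyridostatin, 0 of 19 passed in WT (2 at an unadjusted p under 0.05 from limma, 1.38% of all names called lower) and 3 passed in PARP3-/- cells, all lower (2.52% of all names called lower). The medians were −0.03 and −0.09, against 0.0030 and 0.0021 for all names. NCL (nucleolin, a histone and RNA chaperone of the nucleolus) was at 379 ± 12.8 and 325 ± 6.64 FPKM in PARP3-/- cells without and with pyridostatin (log2 difference −0.22, limma adjusted p = 0.0221). POLR1E, a polymerase subunit, fell from 31.9 ± 0.785 to 28.9 ± 0.280 FPKM (−0.14, limma adjusted p = 0.0345), and NOLC1, a nucleolar phosphoprotein, from 93.1 ± 2.78 to 81.8 ± 1.44 FPKM (−0.18, limma adjusted p = 0.0223). In WT the differences of these genes were −0.0029, −0.05 and −0.10, and none passed. Between genotypes 3 of 19 were lower, where 6.95% of all names were called lower. NPM1, a nucleolar chaperone, was lower in PARP3-/- cells over both treatments (−0.14, limma adjusted p = 0.0155), as were NCL (−0.20, limma adjusted p = 0.00182) and POLR1E (−0.10, limma adjusted p = 0.00977). The 3 calls with pyridostatin fell to 0 with quantiles made equal between libraries. They also fell to 0 without any 1 of the 3 PARP3-/- vehicle libraries or without PARP3-/- pyridostatin replicates 2 or 3, to 1 without its replicate 1, and were 5 without WT vehicle replicate 2. The WT count of 0 was 1 without WT vehicle replicate 1 or with a block for replicate number. The genotype count of 3 was 5 without WT vehicle replicate 2.

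The small-subunit processome binds the 5′ spacer of the ribosomal RNA precursor and trims it. With pyridostatin, 0 of its 28 tested genes passed in WT and 1 in PARP3-/- cells (2 and 8 at an unadjusted p under 0.05 from limma), where 1.38% and 2.52% of all names were called lower. That gene, DCAF13, fell from 44.4 ± 0.0869 to 39.8 ± 0.581 FPKM (−0.15, limma adjusted p = 0.0386). Between genotypes 6 of 28 were lower and 0 higher in PARP3-/- cells, where 6.95% of all names were called lower, with a median of −0.08 against 0.01. Among them were WDR3 (−0.13, limma adjusted p = 0.0145), NOP58 (−0.14, limma adjusted p = 0.0195) and WDR75 (−0.14, limma adjusted p = 0.0203). The count of 6 was 1 without WT pyridostatin replicate 1, 2 without its replicate 3, without PARP3-/- vehicle replicates 2 or 3 or without PARP3-/- pyridostatin replicate 3, and 3 without PARP3-/- pyridostatin replicate 1. That of 1 was 0 with quantiles made equal or with eBayes without a trend, 4 without WT vehicle replicate 2, 2 without WT pyridostatin replicate 2, and 0 without WT vehicle replicate 3, WT pyridostatin replicate 1 or any 1 PARP3-/- library.

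The nuclear RNA exosome and the nuclease XRN2 degrade cut-off spacers and unstable nuclear transcripts. Of the 20 genes, all tested, 0 passed with pyridostatin in WT (2 at an unadjusted p under 0.05 from limma) and 2 in PARP3-/- cells in opposite directions (4 unadjusted), where 4.17% and 5.56% of all names were called. EXOSC6 rose from 15.8 ± 0.995 to 19.4 ± 0.649 FPKM (0.28, limma adjusted p = 0.0129), and EXOSC8 fell from 27.7 ± 0.691 to 23.2 ± 0.975 FPKM (−0.25, limma adjusted p = 0.0397). Both encode ring subunits of the exosome. Between genotypes 1 of 20 passed, where 19.1% of all names were called and 6.95% called lower. This was MPHOSPH6, an exosome-associated protein, which was lower in PARP3-/- cells (−0.14, limma adjusted p = 0.0313). The count of 2 was 0 without PARP3-/- vehicle replicates 1 or 2, 4 without WT vehicle replicate 2, and 1 without 7 of the other libraries. It was also 1 with no filter on low values, with a block for replicate number and after a shift to a common median. The WT count of 0 was 1 without WT vehicle replicate 1. The genotype count of 1 was 0 to 3 with 1 library left out, 3 with quantiles made equal and 4 after the shift.

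A last list held 7 genes reported as targets of miR-663a or miR-3648, of which 6 were tested and APC2 was below a mean of 1 FPKM. With pyridostatin 1 of the 6 passed in each genotype, and it was higher, where 2.79% and 3.05% of all names were called higher. In PARP3-/- cells the count was 2 without WT vehicle replicate 2 or WT pyridostatin replicate 2, with no filter on low values and with quantiles made equal. This was CDKN1A, the cell-cycle inhibitor p21, at 87.0 ± 7.27 and 193 ± 3.40 FPKM in WT (1.14, limma adjusted p = 1.12e-05) and at 100.1 ± 3.90 and 208 ± 8.67 FPKM in PARP3-/- cells (1.05, limma adjusted p = 3.21e-05). CDKN1A also passed an absolute log2 fold change above 1, as did 0.0505% of all names in WT and 0.0673% in PARP3-/- cells. The list was chosen with earlier results of these data known, so setting its count against these shares is a description only. Over both treatments 4 of the 6 were higher in PARP3-/- cells, namely HSPG2 (perlecan, 0.69, limma adjusted p = 1.58e-04), JUNB (0.36, limma adjusted p = 0.00162), TGFB1 (0.21, limma adjusted p = 0.0253) and CDKN1A (0.15, limma adjusted p = 0.0230), against 12.2% of all names called higher. The genotype count of 4 was 2 without WT pyridostatin replicate 3 or without replicates 2 or 3 of either PARP3-/- group, and 2 after a shift to a common median. Mature microRNA was not measured, so the levels of these targets cannot be set against it.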

How the data were processed

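The authors deposited one table of FPKM values, 1 column per library, from stranded poly(A) libraries with single-end reads of 75 bases. The submitters' processing notes name bcl2fastq 2.16, STAR 2.5 and Cufflinks, and the builds mm9 and hg19, without roles. The annotation and the treatment of reads that fit several places are not given in the sources used here, and both could change values of repeated loci. The study tested counts, which were not used here, so limma was applied to log2(FPKM + 1) without further scaling.

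Columns were mapped by the sample labels. Names averaging 1 FPKM or more were tested (11881 of 25365). A single model of the 4 groups was fitted (limma 3.58.1, R 4.3.3, eBayes with a trend, no block), with p-values adjusted by Benjamini and Hochberg over all tested names, and a name was called at an adjusted p under 0.05. The procedure was tested on simulated data. The 3 rows and all gene lists were chosen with earlier results of these data known. Named genes are the 3 rows, the 5 most correlated names per row, the 3 nearest names on each side (none came before MIR3648), up to 4 genes per list with the smallest adjusted p among those that passed (the 2 highest expressed where none did), the 5 highest microRNA rows and PARP3. DROSHA, DICER1 and the 3 non-overlapping microRNA rows were named after their values were seen. Depth is not given with FPKM. Relative depths came from the most frequent ratio of values under 0.5 FPKM to those of the first library (12.2% to 13.8% of values lay there), and steps are the largest unit of which at least 10 depth-corrected values (or all, where fewer were above 0) were whole multiples within 0.05. The study made its RNA-seq in biological triplicate. Spans, neighbours and sequences came from RefSeq on GRCh38.p14 and transcripts from GENCODE 29, matched by name; coordinates are of that build and not necessarily that of the table. Python 3.11.15, numpy 2.4.6, pandas 2.3.3, scipy 1.17.1 and matplotlib 3.10.9 were used.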

Additional observations from a re-analysis of the deposited data

How the results depend on the processing

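The alternatives were a pseudocount of 0.1, no filter on low values or one at 5 FPKM, quantiles made equal, a shift to a common median, eBayes without a trend, only the libraries compared, a replicate block, and each library left out. The genotype tests of the 3 rows stayed above an adjusted p of 0.05 in every alternative run (limma, 0.291 to 0.999), and all pyridostatin differences stayed positive except that of MIR663A in WT, which ran from −0.14 to 0.56 with 1 library left out and was −0.14 without WT vehicle replicate 3 and −0.0063 without WT pyridostatin replicate 1. With the filter at 5 FPKM, LOC284801 and MIR3648 were not tested. A pseudocount of 0.1 raised the difference of LOC284801 in PARP3-/- cells to 1.83 and those of MIR3648 to 3.83 in WT and 4.86 in PARP3-/- cells, since a smaller constant enlarges differences from low values.

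Genes past both thresholds (adjusted p of 0.05, log2 fold change of 1) numbered 47 between genotypes, 6 with pyridostatin in WT and 8 in PARP3-/- cells. The pseudocount of 0.1 gave 89 and 11 for the first 2, and the filter at 5 FPKM gave 25, 3 and 5 from fewer genes. Left-out libraries gave 3 to 8 in WT, the 3 being without pyridostatin replicate 1. At any fold change the WT count of 495 was 65 with only its own libraries and 179 to 710 with 1 library left out (249 without vehicle replicate 3, 179 and 237 without pyridostatin replicates 1 and 3). The PARP3-/- count of 661 was 254 to 1554 (1554 without WT vehicle replicate 2, 335, 295 and 308 without its own vehicle replicates 1, 2 and 3, and 278 and 254 without pyridostatin replicates 2 and 3). The cause was not tested. Among called genes 63.7% between genotypes, 66.9% in WT and 54.8% in PARP3-/- cells were higher, against 45.7%, 45.6% and 45.3% after the shift to a common median and 52.2%, 62.2% and 56.8% with quantiles made equal.

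The list counts are small, and 98 of 342 recomputed ones moved by over 1.5 times. With the replicate block the genotype differences were −0.07, 0.17 and 0.15 (limma adjusted p = 0.738, 0.750 and 0.886 for LOC284801, MIR663A and MIR3648) and 2175, 411 and 589 genes were called at any fold change, so the block changed no call of the 3 rows. Same-numbered libraries share only a number in the labels, and their deviations correlated at −0.120 to 0.216 across genes. All 6 vehicle libraries correlated best with their own number between genotypes, but 2, 5 and 2 of 6 did in the other pairings.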
